A study of Mus musculus with 8 samples.

Results

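The 35 genes described here encode proteins of cholesterol and fatty acid synthesis and of their control in mouse CD8 T cells. They were chosen by symbol, as a list of pathway genes, and all 35 were among the 24976 genes of the count table. By role they are 4 regulators of sterol and fatty acid synthesis, 17 enzymes of the sterol pathway, 3 proteins that export or esterify cholesterol, 3 enzymes that make palmitate from citrate, 7 desaturases, elongases and related enzymes, and Cpt1a, which admits fatty acids to mitochondrial oxidation. Of the 35, 33 had enough counts to be tested, beside 13073 genes tested in all. The other two were the desaturase genes Scd1, with 0 to 4 counts per library, and Fads2, with 0 or 1 count per library.

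Bulk RNA sequencing was carried out on CD3e+CD8+ T cells that had entered tumours of B16-OVA, mouse melanoma cells bearing the ovalbumin antigen, in Rag2-/- hosts, which lack their own lymphocytes of the T and B lineages. Tumours were given 10 days before T cell transfer, and cells were sorted 10 days after it. The donors of one arm carried floxed Nr4a1 and Nr4a2 alleles (NR4a1 flox/flox NR4a2 flox/flox), Cd8Cre and OT-I Tg/+, a T cell receptor transgene that recognises ovalbumin; these libraries are labelled dKO. The other donors were WT, and the labels do not say whether they carried OT-I. In comparisons of these labels, Nr4a1 and Nr4a2 loss, Cd8Cre and OT-I therefore cannot be told apart. The 4 groups were labelled dKO PD1+Tim3+, WT PD1+Tim3+, labelled dKO PD1+Tim3- and WT PD1+Tim3-, with 2 libraries each and 8 in all. PD1 and Tim3 are surface inhibitory receptors, and cells bearing both are commonly described as further along in exhaustion than cells with PD1 alone. Per the labels, each sample came from the cells of an implanted mouse. The study asked what loss of Nr4a1 and Nr4a2, nuclear receptors induced by T cell receptor signalling, does to CD8 T cells in the tumour.

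Cholesterol is built from acetyl-CoA by way of mevalonate, isoprenoids, squalene and lanosterol. SREBP transcription factors, encoded by Srebf1 and Srebf2, switch on the genes of this route when sterols are low; the escort protein SCAP carries them out of the endoplasmic reticulum, and INSIG1 holds SCAP back when sterols are plentiful. Oxidised sterols act through LXR receptors to raise the exporters ABCA1 and ABCG1. Fatty acid synthesis starts from citrate, through ATP citrate lyase, acetyl-CoA carboxylase and fatty acid synthase, after which elongases and desaturases lengthen and bend the chains. Activated T cells draw on both routes to build membranes before they divide.

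Promoter sequences were examined because SREBP factors bind a sterol response element and an E-box and act with NF-Y, which binds CCAAT, while NR4A receptors bind the NBRE. Of the 35 genes, 28 matched the RefSeq promoter table of build GRCm38.p6, which gives 250 bases before and 50 bases from each start. Counts of Sc5d, Fasn, Elovl6, Elovl1 and Cpt1a differed between populations, and the last pair are not shown here. Hmgcs1 is added as the 1 sterol enzyme gene with a match to the sterol response element. The 4 shown are thus Hmgcs1, Sc5d, Fasn and Elovl6. Each is written 5′ to 3′ on the strand of its gene, and capitals mark matches to the sterol response element TCACNCCAC, the E-box CACGTG or the CCAAT box CCAAT on either strand (ATTGG on the opposite one).
Hmgcs1 promoter: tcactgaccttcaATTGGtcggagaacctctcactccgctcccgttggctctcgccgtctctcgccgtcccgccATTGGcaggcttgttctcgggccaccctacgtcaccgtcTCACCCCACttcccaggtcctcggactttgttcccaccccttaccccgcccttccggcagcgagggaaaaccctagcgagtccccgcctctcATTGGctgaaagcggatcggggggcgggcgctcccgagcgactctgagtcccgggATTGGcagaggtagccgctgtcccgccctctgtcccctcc
Sc5d promoter: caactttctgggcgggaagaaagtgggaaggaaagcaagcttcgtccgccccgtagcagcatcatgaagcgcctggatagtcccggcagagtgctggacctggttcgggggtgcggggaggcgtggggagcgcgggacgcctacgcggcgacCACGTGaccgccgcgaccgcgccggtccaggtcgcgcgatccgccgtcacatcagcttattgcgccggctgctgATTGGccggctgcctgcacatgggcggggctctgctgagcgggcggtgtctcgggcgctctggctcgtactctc
Fasn promoter: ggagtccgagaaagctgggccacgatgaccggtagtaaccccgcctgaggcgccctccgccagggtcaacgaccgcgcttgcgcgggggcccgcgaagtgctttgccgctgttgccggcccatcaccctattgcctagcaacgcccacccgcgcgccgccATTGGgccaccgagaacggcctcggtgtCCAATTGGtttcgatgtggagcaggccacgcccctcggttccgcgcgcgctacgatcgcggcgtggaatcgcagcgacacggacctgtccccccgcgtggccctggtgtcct
Elovl6 promoter: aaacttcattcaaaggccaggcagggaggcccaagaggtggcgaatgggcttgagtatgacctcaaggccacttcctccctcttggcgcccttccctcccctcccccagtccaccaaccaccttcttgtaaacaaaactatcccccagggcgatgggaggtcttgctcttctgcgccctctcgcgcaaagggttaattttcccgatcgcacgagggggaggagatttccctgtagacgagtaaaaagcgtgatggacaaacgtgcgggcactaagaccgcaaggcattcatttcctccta

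Hmgcs1, which encodes the synthase that makes HMG-CoA, has its promoter at chr13:119690101-119690400, forward strand. The sterol response element there, TCACCCCAC, began 137 bases before the start, at -137, and CCAAT boxes began at -237, -176, -45 and 11. The Sc5d promoter, at chr9:42264251-42264550, reverse strand, held an E-box at -98 and a CCAAT box at -24. The Fasn promoter, at chr11:120824498-120824797, reverse strand, held CCAAT boxes at -90, -62 and -59, of which the last pair overlap. The Elovl6 promoter, at chr3:129532136-129532435, forward strand, held no match to any motif searched, so it carries no capitals.

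A CCAAT box lay in 13 of the 14 sterol enzyme promoters matched and in 5 of the 8 fatty acid gene promoters, against 41.1% of 27025 genes with a promoter in the table. The sterol response element letters lay in 1 of the 14 and 0 of the 8, against 1.44% of genes. The E-box lay in 3 sterol enzyme promoters (Hsd17b7, Sc5d, Dhcr7), in the fatty acid elongase gene Elovl5, and in Insig1, Scap and Abca1, against 8.09% of genes. The NBRE letters AAAGGTCA, searched on both strands, lay in 0 of the 28 promoters, against 1.70% of genes. These are letter matches in one window, not measured binding.

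Libraries held 1944999 to 13418762 counts. Levels are given as CPM, counts scaled to a common library size after TMM, a method that equalises the bulk of genes, and differences as log2 fold changes ± SE from edgeR's quasi-likelihood test over all 13073 genes; a gene was called at a Benjamini-Hochberg adjusted p under 0.05. Nr4a1 was not lower in libraries labelled dKO, with log2 fold changes against WT of 0.57 in the PD1+Tim3+ sort (adjusted p 0.0944) and 0.64 in the PD1+Tim3- sort (adjusted p 0.126), and Nr4a2 differed by -0.05 and -0.06. A loss of the targeted genes was thus not seen in these counts. The sources used here do not say which exons were floxed, so the label could not be checked from gene counts. The 7 CD8 T cell markers in the table summed to 3015 to 3978 CPM, against 18.0 to 22.2 for 7 melanoma markers, 5.77 to 12.2 for 7 macrophage markers and 0 to 0.829 for 2 adipocyte markers; macrophages and adipocytes are cell types rich in lipid genes. Of 6 dendritic cell markers 3 were tested, and 1, Itgax, was called higher in PD1+Tim3+ cells of both genotypes; of 5 fibroblast and endothelium markers 1 was tested, Pecam1, and was called lower in WT PD1+Tim3+ cells (-0.57 ± 0.16, adjusted p 0.0361). In sorted bulk samples, fewer cells of a type and less RNA per cell cannot be told apart.

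Per kilobase of the longest annotated coding transcript, sterol enzymes averaged between 1.07 (Lss) and 33.6 CPM per kilobase (Ebp) over the 8 libraries. Elovl5 and Elovl1 stood at 24.2 and 22.8 CPM per kilobase against the elongase gene Elovl6 at 5.92 and fatty acid synthase gene Fasn at 5.02. Of the stearoyl-CoA desaturase genes, Scd2 averaged 7.42 CPM per kilobase and Scd1 0.0406, and the polyunsaturated chain desaturase gene Fads1 averaged 1.37. The cholesterol exporter gene Abcg1 averaged 5.82 CPM per kilobase and its relative Abca1 0.261.

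Members were called between populations at or below the rate of all genes, and none was called between genotypes, where few genes were. In WT cells 3 of 33 members were called between PD1+Tim3+ and PD1+Tim3- libraries, where 17% of all genes tested were called (8.25% higher and 8.76% lower). They were Elovl1 and Sc5d, higher in PD1+Tim3+ cells, and Elovl6, lower there. In cells labelled dKO 3 of 33 were called as well, where 9.93% of all genes were (5.21% higher and 4.72% lower), namely Cpt1a, higher in PD1+Tim3+ cells, and Elovl6 and Fasn, lower there. At an unadjusted p under 0.05, 8 of 33 members stood out in each genotype, against 23.7% of all genes in cells labelled dKO and 31.6% in WT. By role, 2 of 9 fatty acid genes and 1 of 17 sterol enzymes were called in WT, and 3 of 9 and 0 of 17 in cells labelled dKO. Between genotypes 0 of 33 were called in PD1+Tim3+ cells, where 0.627% of all genes were, and 0 of 33 in PD1+Tim3- cells, where 0.0459% were.

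Among sterol regulators the levels were nearly even. Summed over the 4, they held 150 to 157 CPM in PD1+Tim3+ libraries and 141 to 147 CPM in PD1+Tim3- libraries. Srebf1, which encodes SREBP1, had 19.7 and 22.0 CPM in PD1+Tim3+ libraries labelled dKO and 18.4 and 23.1 CPM in WT ones, against 21.4 and 22.6 CPM in PD1+Tim3- libraries labelled dKO and 18.9 and 19.5 CPM in WT ones. Insig1, the sterol-sensing brake and itself an SREBP target, had 46.2 and 44.0 CPM in PD1+Tim3+ libraries labelled dKO and 43.2 and 40.7 CPM in WT ones, against 37.1 and 44.1 CPM in PD1+Tim3- libraries labelled dKO and 37.3 and 39.2 CPM in WT ones. For Insig1 the WT populations did not overlap, while those labelled dKO did, by 1 library. Log2 differences between populations were 0.18 ± 0.12 for Insig1 in cells labelled dKO and 0.13 ± 0.11 in WT cells, with adjusted p values of 0.412 and 0.456. Srebf2 and Scap lay between 56.2 and 68.1 CPM and between 20.05 and 24.7 CPM over the 8 libraries, and no regulator was called in any comparison. Every 95% interval for a regulator lay within 2-fold in either direction in each of the 4 comparisons between a pair of groups. Srebf1 shares exon positions with Rai1, a gene on the opposite strand that averaged 39.3 CPM over the 8 libraries, against 20.7 for Srebf1. The part of Rai1 in the Srebf1 counts was not tested.

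Among the 17 sterol enzymes, most had small positive differences between PD1+Tim3+ and PD1+Tim3- cells, and 1 passed the test. Sc5d, the desaturase of a late step towards cholesterol, had 21.8 and 21.4 CPM in PD1+Tim3+ libraries labelled dKO and 21.4 in each WT one, against 17.01 and 14.7 CPM in PD1+Tim3- libraries labelled dKO and 14.8 and 16.2 CPM in WT ones. All 4 PD1+Tim3+ libraries lay above all 4 PD1+Tim3- libraries. Within a genotype, 26.2% of all genes labelled dKO and 32.7% in WT had both PD1+Tim3+ libraries above both PD1+Tim3- ones. The share of all genes with this order across both genotypes was not counted. Sc5d rose by 0.48 ± 0.14 on the log2 scale in WT PD1+Tim3+ cells (adjusted p 0.0351); the difference in cells labelled dKO was 0.41 ± 0.16 (adjusted p 0.131), and the interaction between genotype and population was -0.07 ± 0.21 (adjusted p 0.937). The WT call was lost without any 1 of the 4 WT libraries (adjusted p 0.0709 to 0.254) and with DESeq2 (0.308).

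Ebp, the isomerase that acts before Sc5d, showed the same order without a call. It had 80.2 and 60.0 CPM in PD1+Tim3+ libraries labelled dKO and 63.6 and 67.1 CPM in WT ones, against 52.3 and 47.2 CPM in PD1+Tim3- libraries labelled dKO and 44.2 and 54.1 CPM in WT ones. The PD1+Tim3+ libraries again all lay above the PD1+Tim3- ones. Its log2 differences were 0.48 ± 0.16 in cells labelled dKO (adjusted p 0.0844) and 0.42 ± 0.15 in WT cells (adjusted p 0.0742). The first was called without PD1+Tim3+ library 2 labelled dKO (0.67, adjusted p 0.0111), and the second without either PD1+Tim3+ library labelled dKO (adjusted p 0.0194 and 0.0204).

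**Figure D1:**
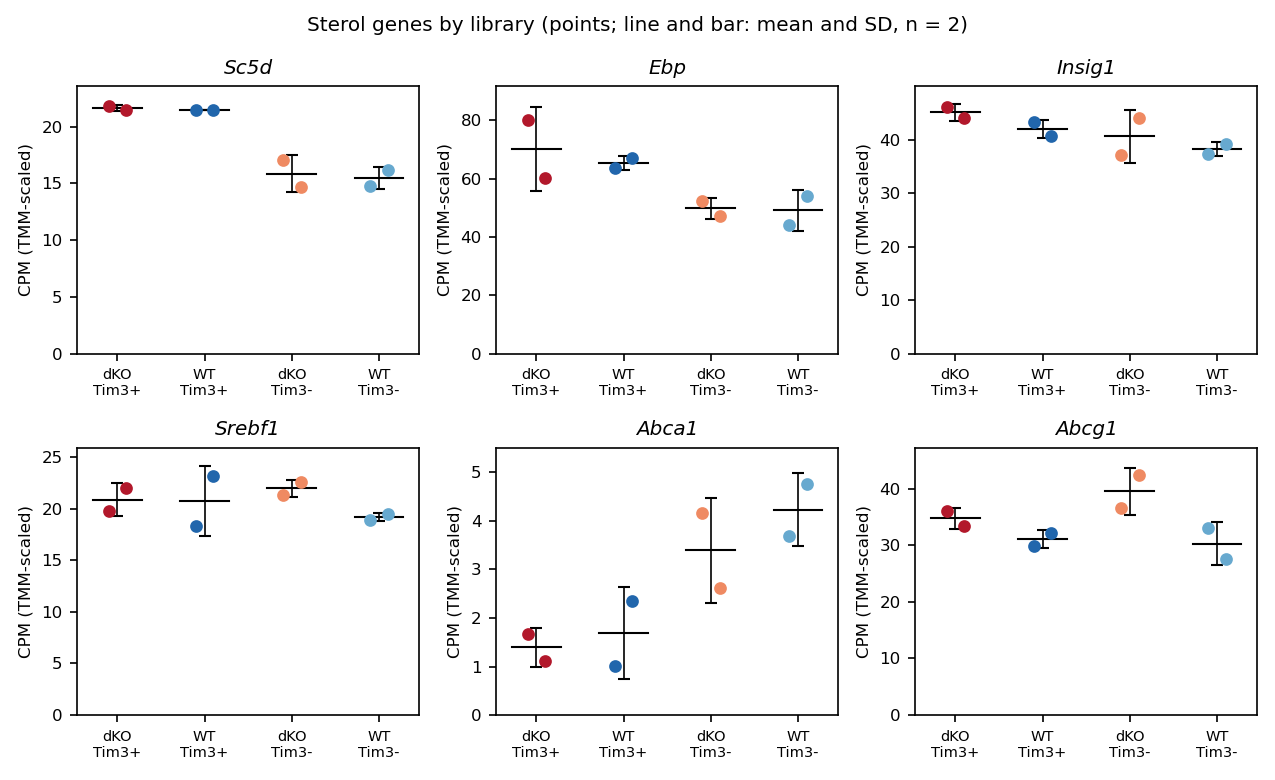
CPM of 6 sterol genes in each library (points), with the mean and SD of 2 libraries (line and bar) and groups on the horizontal axis, where dKO stands for labelled dKO. Sc5d and Ebp are higher in the 4 PD1+Tim3+ libraries than in the 4 PD1+Tim3- libraries, Abca1 is lower, and Insig1, Srebf1 and Abcg1 differ little.

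The other 15 sterol enzymes, from Acat2 and Hmgcs1 at the head of the route to Dhcr7 at its end, were not called. Over all 17 the median log2 difference between PD1+Tim3+ and PD1+Tim3- cells was 0.11 in cells labelled dKO, between -0.32 (Dhcr7) and 0.55 (Acat2), and 0.16 in WT cells, between -0.30 (Dhcr7) and 0.83 (Acat2). The medians over all genes tested were 0.01 in both. The difference was positive for 13 of the 17 in cells labelled dKO and 14 of the 17 in WT cells, where it was positive for 51% and 51.2% of all genes; 11 of the 17 were positive in both. Both PD1+Tim3+ libraries lay above both PD1+Tim3- libraries for 5 of the 17 in cells labelled dKO and 6 of the 17 in WT cells, against 26.2% and 32.7% of all genes. Acat2 and Acat3 are near-identical genes, and Fdft1, Cyp51 and Lss share exon positions with Ctsb, Akap9 and 4930483K19Rik on the opposite strand. The counts of these 4 enzymes are therefore uncertain, though 4930483K19Rik itself had 1 count over all libraries.

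Summed over the 17 sterol enzymes, PD1+Tim3+ libraries held 309 and 288 CPM where labelled dKO and 276 and 283 CPM in WT, against 260 and 251.4 CPM in PD1+Tim3- libraries labelled dKO and 241 and 253 CPM in WT ones. Every PD1+Tim3+ library was above every PD1+Tim3- library. With Ebp and Sc5d left out, a sum chosen after the data were seen, the other 15 enzymes summed to 207.4 and 206.9 CPM in PD1+Tim3+ libraries labelled dKO and 190.6 and 194.3 CPM in WT ones, against 190.7 and 189.5 CPM in PD1+Tim3- libraries labelled dKO and 182.0 and 183.0 CPM in WT ones. The PD1+Tim3+ libraries then lay above the PD1+Tim3- libraries within each genotype, but not across genotypes. The 12 cell cycle markers moved the same way: they summed to 944 to 1170 CPM in PD1+Tim3+ libraries and 669 to 853 CPM in PD1+Tim3- libraries, and 8 of 12 were called higher in PD1+Tim3+ cells labelled dKO and 10 of 12 in WT ones. Counts of the ribosomal RNA genes Rn45s and Rn18s made up 6.53% to 8.36% of PD1+Tim3+ libraries and 1.61% to 2.37% of PD1+Tim3- libraries. The part of cell cycle state in these differences was not tested; with the ribosomal RNA genes left out, the member counts called were the same.

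**Figure D2:**
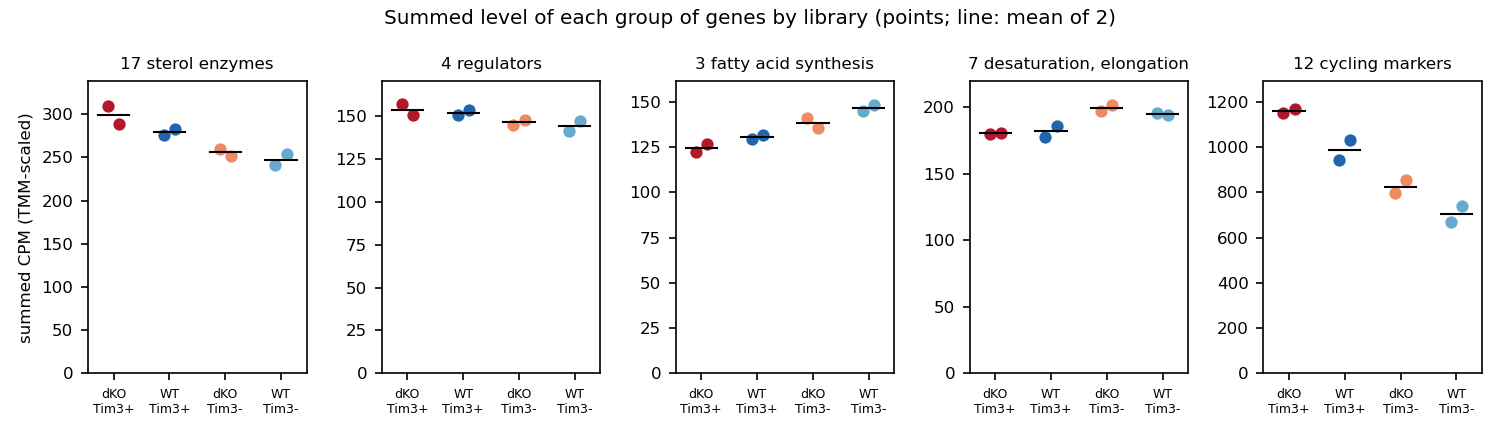
Summed CPM of 4 groups of lipid genes and of the 12 cell cycle markers in each library (points; line, mean of 2), where dKO stands for labelled dKO. Sterol enzymes sum to 276 to 309 CPM in PD1+Tim3+ libraries and 241 to 260 CPM in PD1+Tim3- libraries, while the 3 fatty acid synthesis genes sum to 122 to 132 CPM in PD1+Tim3+ libraries and 135 to 148 CPM in PD1+Tim3- libraries. The sums of the regulators (150 to 157 against 141 to 147 CPM) separate the populations too. So do those of the desaturation and elongation genes (178 to 186 against 194 to 202 CPM).

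Among the 33 members tested, Abca1, a gene that moves cholesterol out of the cell, had the largest fitted difference between populations and the lowest counts. It had 1.68 and 1.11 CPM in PD1+Tim3+ libraries labelled dKO and 1.02 and 2.36 CPM in WT ones, against 4.16 and 2.62 CPM in PD1+Tim3- libraries labelled dKO and 3.70 and 4.77 CPM in WT ones, on 5 to 33 counts per library. All PD1+Tim3+ libraries lay below all PD1+Tim3- libraries. Within a genotype, 24.7% of all genes labelled dKO and 30.3% in WT had both PD1+Tim3+ libraries below both PD1+Tim3- ones. The log2 differences were -1.40 ± 0.52 in cells labelled dKO and -1.13 ± 0.39 in WT cells, with adjusted p values of 0.122 and 0.0721, so neither was called.

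Abcg1, which exports cholesterol to lipoproteins, had 36.1 and 33.4 CPM in PD1+Tim3+ libraries labelled dKO and 29.9 and 32.2 CPM in WT ones, against 36.6 and 42.5 CPM in PD1+Tim3- libraries labelled dKO and 33.0 and 27.6 CPM in WT ones. Both libraries labelled dKO lay above both WT libraries in each population. The genotype differences were 0.16 ± 0.13 in PD1+Tim3+ cells (adjusted p 0.702) and 0.35 ± 0.14 in PD1+Tim3- cells (adjusted p 0.574). Soat1, which esterifies cholesterol for storage, lay between 19.4 and 27.7 CPM and was not called in any comparison.

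In fatty acid synthesis proper, Fasn fell in PD1+Tim3+ cells labelled dKO. Fasn, which encodes the synthase that makes palmitate, had 40.8 and 37.3 CPM in PD1+Tim3+ libraries labelled dKO and 53.4 and 46.8 CPM in WT ones, against 57.4 and 56.7 CPM in PD1+Tim3- libraries labelled dKO and 52.2 and 58.9 CPM in WT ones. The pair of PD1+Tim3+ libraries labelled dKO lay below the other 6. Fasn fell by 0.55 ± 0.12 on the log2 scale between PD1+Tim3+ and PD1+Tim3- cells labelled dKO (adjusted p 0.0223), and differed by -0.15 ± 0.11 in WT cells (adjusted p 0.388). The interaction was -0.40 ± 0.17, with an unadjusted p of 0.0374 and an adjusted p of 0.454, so a difference between genotypes in this change was not shown; between genotypes in PD1+Tim3+ cells Fasn differed by -0.35 ± 0.12 (adjusted p 0.244). The call was lost without either PD1+Tim3- library labelled dKO (adjusted p 0.102 and 0.150), without PD1+Tim3+ library 2 labelled dKO (0.0633), and with DESeq2 (0.0880).

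Acaca, acetyl-CoA carboxylase, had 27.9 and 23.5 CPM in PD1+Tim3+ libraries labelled dKO and 18.2 and 26.6 CPM in WT ones, against 30.0 and 24.7 CPM in PD1+Tim3- libraries labelled dKO and 32.4 and 28.6 CPM in WT ones. The WT populations did not overlap, while those labelled dKO did. Its difference was -0.13 ± 0.20 in cells labelled dKO and -0.41 ± 0.18 in WT cells (adjusted p 0.755 and 0.140). Acly, ATP citrate lyase, stayed between 53.4 and 66.0 CPM and was not called.

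Elovl6, which extends palmitate to stearate, was the member called in both genotypes. It had 18.4 and 24.02 CPM in PD1+Tim3+ libraries labelled dKO and 26.9 and 27.9 CPM in WT ones, against 30.8 and 38.3 CPM in PD1+Tim3- libraries labelled dKO and 54.2 and 61.6 CPM in WT ones. The 4 groups did not overlap with one another, and the order from low to high was PD1+Tim3+ labelled dKO, PD1+Tim3+ WT, PD1+Tim3- labelled dKO and PD1+Tim3- WT. Elovl6 fell by 0.66 ± 0.17 on the log2 scale in PD1+Tim3+ cells labelled dKO (adjusted p 0.0351) and by 1.07 ± 0.14 in WT ones (adjusted p 0.00133), the second being 0.476-fold of the WT PD1+Tim3- level. The interaction was 0.41 ± 0.22 (adjusted p 0.576). The WT call held in all 19 other fits, at log2 values from -1.16 to -0.98. The call in cells labelled dKO was lost with limma-voom (0.0515), DESeq2 (0.0676) and only the 4 libraries compared (0.0782), or with any 1 of 5 libraries left out (both PD1+Tim3- ones labelled dKO, PD1+Tim3+ library 1 labelled dKO and both WT PD1+Tim3+ ones) (adjusted p 0.0576 to 0.1745).

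The same gene had the smallest p among members between genotypes in PD1+Tim3- cells. Elovl6 differed there by -0.78 ± 0.15, with an unadjusted p of 0.000329 and an adjusted p of 0.126, and in PD1+Tim3+ cells by -0.37 ± 0.15 (adjusted p 0.362). The PD1+Tim3- value and the WT population difference both rest on the 2 WT PD1+Tim3- libraries, the highest of the 8. This genotype difference was called in 4 of 18 other fits and not in 14. It was called with a robust fit (adjusted p 0.0344) and with no filter on low counts (0.000391). Those fits called 56 and 232 of all genes in this comparison, against 6 in the main fit. The other calls came without PD1+Tim3+ library 1 or 2 labelled dKO (-0.79 each), which are not in this comparison. An antisense gene, Gm35986, shares exon positions with Elovl6 and had 1 count over all libraries, against 1699 for Elovl6. The sources used here do not give the strand setting of the counting.

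Elovl1, an elongase of saturated very long chains, rose in WT PD1+Tim3+ cells. It had 43.2 and 35.3 CPM in PD1+Tim3+ libraries labelled dKO and 49.5 and 50.1 CPM in WT ones, against 39.1 and 42.0 CPM in PD1+Tim3- libraries labelled dKO and 35.5 and 36.1 CPM in WT ones. WT PD1+Tim3+ libraries were the highest, and the 2 populations labelled dKO overlapped. The log2 differences were -0.03 ± 0.13 in cells labelled dKO (adjusted p 0.938) and 0.48 ± 0.12 in WT cells (adjusted p 0.0176), and the interaction was -0.51 ± 0.17, with an unadjusted p of 0.0139 and an adjusted p of 0.354. The WT call was lost without any 1 of the 4 WT libraries (adjusted p 0.0600 to 0.128) and with DESeq2 (0.159).

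Elovl1 (chr4:118426874-118432953, forward strand, GRCm38) shares exon positions with Cdc20, a cell cycle gene on the opposite strand. Cdc20 had 10.4 and 10.9 CPM in PD1+Tim3+ libraries labelled dKO and 7.48 and 9.64 CPM in WT ones, against 5.25 and 4.20 CPM in PD1+Tim3- libraries labelled dKO and 4.41 and 4.98 CPM in WT ones. Cdc20 rose in both genotypes, by 1.11 ± 0.26 in cells labelled dKO and 0.92 ± 0.23 in WT cells (adjusted p 0.0262 and 0.0188). Its part in the Elovl1 counts was not tested.

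Scd2, a stearoyl-CoA desaturase gene, had 49.7 and 50.1 CPM in PD1+Tim3+ libraries labelled dKO against 36.7 and 37.9 CPM in WT ones, and 41.4 and 40.9 CPM in PD1+Tim3- libraries labelled dKO against 34.98 and 31.9 CPM in WT ones. Libraries labelled dKO lay above WT libraries in both populations. The log2 differences were 0.42 ± 0.10 for the PD1+Tim3+ sort and 0.30 ± 0.12 for the PD1+Tim3- sort, and neither passed the adjusted threshold (0.128 and 0.566). Elovl5, which elongates polyunsaturated chains, lay between 58.9 and 81.1 CPM, with differences between genotypes of 0.06 ± 0.11 for the PD1+Tim3+ sort and 0.33 ± 0.11 for the PD1+Tim3- sort (adjusted p 0.912 and 0.481). Fads1, a desaturase of polyunsaturated chains, lay between 3.15 and 5.78 CPM and was not called.

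**Figure D3:**
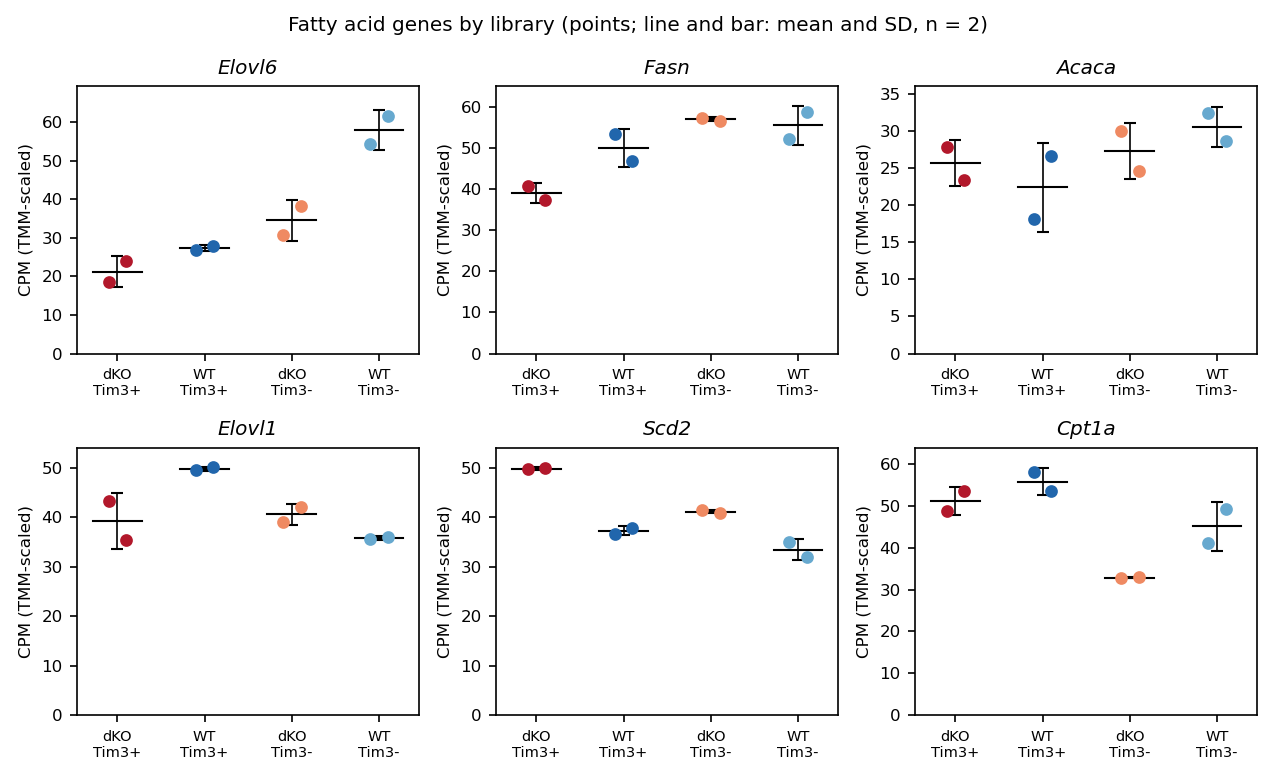
CPM of 6 fatty acid genes in each library (points), with the mean and SD of 2 libraries (line and bar) and groups on the horizontal axis, where dKO stands for labelled dKO. Elovl6 steps up over the 4 groups from 18.4 to 61.6 CPM, Fasn is lowest in PD1+Tim3+ libraries labelled dKO, Elovl1 is highest in WT PD1+Tim3+ libraries, and Cpt1a is lowest in PD1+Tim3- libraries labelled dKO.

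Cpt1a, the gate for long-chain fatty acids into mitochondria, rose in PD1+Tim3+ cells labelled dKO. It had 48.8 and 53.6 CPM in PD1+Tim3+ libraries labelled dKO and 58.2 and 53.6 CPM in WT ones, against 32.8 and 33.1 CPM in PD1+Tim3- libraries labelled dKO and 41.1 and 49.3 CPM in WT ones. In each genotype both PD1+Tim3+ libraries lay above both PD1+Tim3- libraries. Cpt1a rose by 0.64 ± 0.13 in PD1+Tim3+ cells labelled dKO (adjusted p 0.0163); in WT cells the difference was 0.31 ± 0.12 (adjusted p 0.0960), and the interaction was 0.33 ± 0.18 (adjusted p 0.583). In PD1+Tim3- cells the genotype difference was -0.45 ± 0.13, with an unadjusted p of 0.00615 and an adjusted p of 0.456. The call in cells labelled dKO was lost without either PD1+Tim3- library labelled dKO (adjusted p 0.0830 and 0.130).

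Over the 9 fatty acid genes tested, the median log2 difference between populations was -0.03 in cells labelled dKO and -0.02 in WT cells, with 4 positive and 5 negative in each. The 3 synthesis genes summed to 122 and 127 CPM in PD1+Tim3+ libraries labelled dKO and 129 and 132 CPM in WT ones, against 141 and 135 CPM in PD1+Tim3- libraries labelled dKO and 145 and 148 CPM in WT ones. All 4 PD1+Tim3+ libraries lay below all 4 PD1+Tim3- libraries in that sum, while the sum of the 17 sterol enzymes stood the other way round. Such full separation was not particular to these sums. The 4 regulators also summed higher in every PD1+Tim3+ library (150 to 157 against 141 to 147 CPM). The 7 desaturation and elongation genes summed lower there (178 to 186 against 194 to 202 CPM). None of the 3 synthesis genes separated the populations in this way alone. In cells labelled dKO the log2 differences were 0.15 for Acly, -0.13 for Acaca and -0.55 for Fasn. In WT cells they were -0.06, -0.41 and -0.15. Without Fasn the sum no longer separated all libraries by population. PD1+Tim3+ library 2 labelled dKO had 66.0 CPM of Acly and 23.5 CPM of Acaca. PD1+Tim3- library 2 labelled dKO had less in sum, with 54.1 and 24.7 CPM. In WT cells Acly and Acaca each lay lower in both PD1+Tim3+ libraries than in both PD1+Tim3- libraries.

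**Figure D4:**
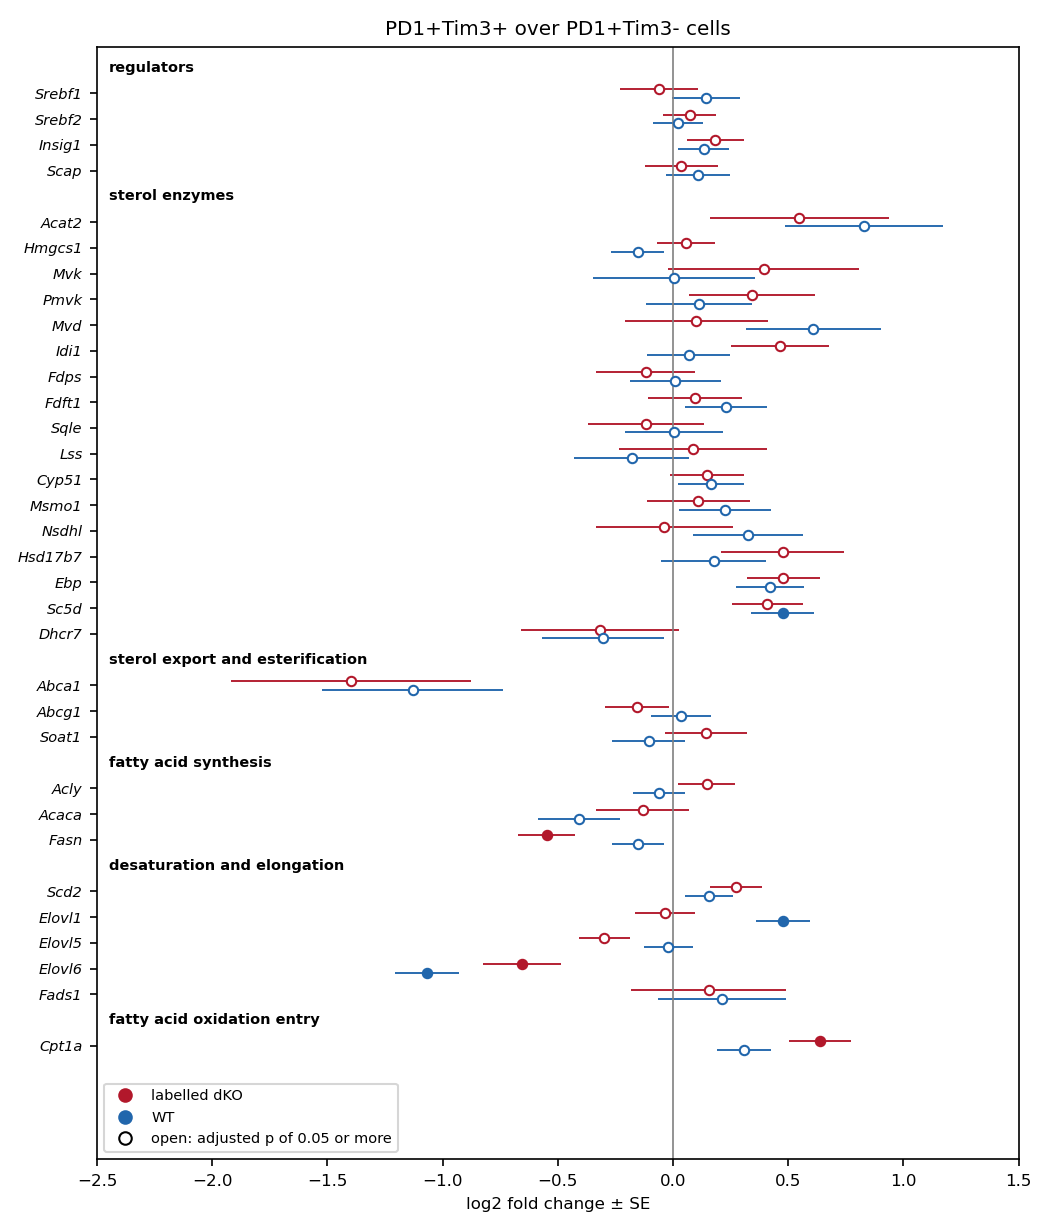
Log2 fold change of PD1+Tim3+ over PD1+Tim3- cells for the 33 members tested, by role, in cells labelled dKO (red) and WT (blue), with bars of 1 SE. Filled points mark the 6 calls, which were Cpt1a, Elovl6 and Fasn in cells labelled dKO and Elovl1, Elovl6 and Sc5d in WT.

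Between genotypes no sterol enzyme was called. In PD1+Tim3+ cells the median log2 difference of the 17 was 0.10, with 12 positive and 5 negative (51% of all genes were positive), between -0.40 (Nsdhl) and 0.28 (Fdps). In PD1+Tim3- cells it was 0.04, with 9 positive and 8 negative (49.1% of all genes were positive), between -0.39 (Lss) and 0.74 (Mvd). The fatty acid genes had medians of -0.09 and -0.03. At an unadjusted p under 0.05, 4 of 33 members stood out in PD1+Tim3+ cells (Scd2 higher, and Elovl1, Fasn and Elovl6 lower in cells labelled dKO), where 12% of all genes did. In PD1+Tim3- cells 6 of 33 did (Elovl5, Scd2, Abcg1 and Mvd higher, Elovl6 and Cpt1a lower), where 8.27% of all genes did. DESeq2 called 0 members in both, with 1 and 2 at an unadjusted p under 0.05, and limma-voom called 0 in both, with 4 and 6.

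The 95% intervals of these genotype differences lay within 2-fold in either direction for 30 of 33 members in PD1+Tim3+ cells and 26 of 33 in PD1+Tim3- cells. Whether smaller differences exist could not be told at this depth and replication. No member was called for the interaction of genotype and population, where edgeR called 0% of all genes; 2 members, Elovl1 and Fasn, had an unadjusted p under 0.05 there, against 10.1% of all genes, with 0 by DESeq2 and 2 by limma-voom.

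**Figure D5:**
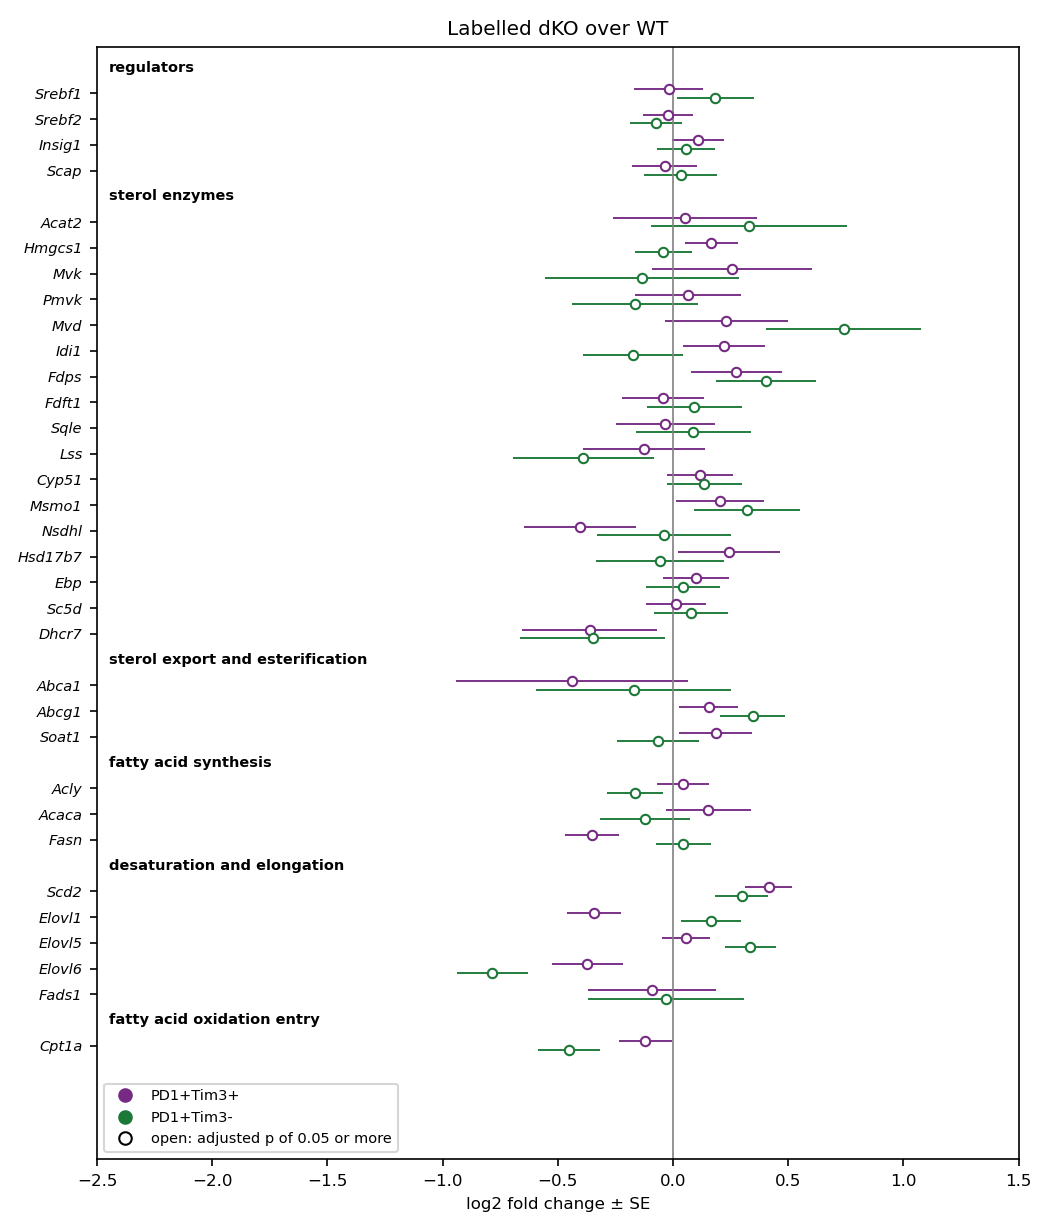
Log2 fold change of libraries labelled dKO over WT for the 33 members tested, by role, in PD1+Tim3+ (purple) and PD1+Tim3- cells (green), with bars of 1 SE. No point is filled, since no member passed the adjusted threshold; Elovl6 in PD1+Tim3- cells lies farthest to the left at -0.78 ± 0.15.

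Other genes of the same routes were counted from lists by role. Beside them, 5.21% of all genes were called higher and 4.72% lower in PD1+Tim3+ cells labelled dKO, and 8.25% higher and 8.76% lower in WT. On the sterol side, 13 of 14 genes were tested, and 1 was called, Npc2, which empties cholesterol from lysosomes: it averaged 169 ± 6.90 CPM in WT PD1+Tim3+ libraries, against 218 ± 7.57 CPM in WT PD1+Tim3- ones (SD, n = 2), a log2 difference of -0.36 ± 0.10 (adjusted p 0.0360) that was lost without any 1 of 6 libraries, the exceptions being the PD1+Tim3+ ones labelled dKO (adjusted p 0.0623 to 0.263), with no filter (0.0979) and with DESeq2 (0.134). On the fatty acid side, 9 of 14 were tested, with 1 higher in PD1+Tim3+ cells labelled dKO, 2 higher in WT ones and 0 lower. Dgat1, which makes triglycerides for lipid droplets, averaged 60.8 ± 7.15 CPM in PD1+Tim3+ libraries, against 35.7 ± 1.41 CPM in PD1+Tim3- ones, labelled dKO, and 48.0 ± 2.44 against 29.5 ± 0.846 CPM in WT (SD, n = 2). It rose by 0.78 ± 0.13 in cells labelled dKO (adjusted p 0.00477) and by 0.71 ± 0.12 in WT cells (adjusted p 0.00357); the first was lost without PD1+Tim3- library 1 labelled dKO (0.0967).

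Mid1ip1, a partner of acetyl-CoA carboxylase, rose by 0.63 ± 0.17 in WT PD1+Tim3+ cells (adjusted p 0.0300), to 15.4 ± 1.29 CPM, against 9.93 ± 1.44 CPM in WT PD1+Tim3- cells (SD, n = 2). That call was lost without any 1 of the 4 WT libraries (adjusted p 0.0820 to 0.229) and with DESeq2 (0.220). Of 11 genes of fatty acid oxidation, 1 was called, Acadl, a dehydrogenase of long-chain acyl-CoA. It averaged 105 ± 1.30 CPM in WT PD1+Tim3+ libraries, against 70.5 ± 9.04 CPM in WT PD1+Tim3- ones (SD, n = 2), a rise of 0.58 ± 0.13 (adjusted p 0.0132) that was lost without WT PD1+Tim3- library 1 (0.140) or either WT PD1+Tim3+ library (0.0827 and 0.0945). By edgeR 0 genes of these 3 lists were called between genotypes or for the interaction.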

How the data were processed

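RNA was measured in 8 libraries, in 4 groups of 2 taken from GEO's labels. The authors deposited 1 table of raw counts, by gene symbol. The submitters' processing notes name build mm10, cutadapt 1.18 and Bowtie2 2.2.5; the sources used here do not give the counting tool, annotation or strand setting. One unnamed line, equal to the column totals in 8 of 8 libraries, was left out. The 35 members carried 1589 to 12082 counts per library. The labels say that the cells of an implanted mouse formed a sample, but not which samples share a host or donor, so p-values measure the spread between these samples.

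Counts were fitted in edgeR 4.0.16 (R 4.3.3) with TMM scaling, filterByExpr and glmQLFTest on 4 group means, with 4 residual and 7.078 prior degrees of freedom and a common biological coefficient of variation of 10.9%. p-values were adjusted by Benjamini-Hochberg over all 13073 genes. Alternatives were RLE size factors, no filter or one of 5 CPM in 2 libraries, a robust fit, ribosomal RNA genes left out, replicate blocks, only the 4 libraries compared, replicate 2 of both groups labelled dKO left out, each library left out, DESeq2 1.42.0 and limma-voom 3.58.1. The fit was tested on simulated data that gave each gene the same spread in all groups. No result here rests on that test. Replicates differed beyond counting noise, and unevenly. Chi-square per gene was 18 in WT PD1+Tim3- libraries, 11.5 in PD1+Tim3+ libraries labelled dKO and 3.38 in each other group. The fit used 1 estimate of the spread of a gene for all groups.

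Members called in any comparison, and the 2 with the smallest p in each role, have values in every library; Scd2 and Cdc20 were added after their values were seen. The members and lists were chosen with earlier results of these data known. Transcript lengths came from the mouse reference annotation of GRCm38, the assembly behind mm10. Markers of dendritic cells summed to 25.9 to 55.7 CPM, of fibroblasts and endothelium to 21.5 to 37.1, of neutrophils to 2.04 to 4.69 and of B cells to 0.429 to 1.81. Intervals are 95%.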

Additional observations from a re-analysis of the deposited data

How the results depend on the processing

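Of the 92 counts of called members recomputed, 76 matched the main count, by a rule that depended on that count. Where the main count was 0, a match meant 0 again. That held in 18 fits between genotypes in PD1+Tim3+ cells, 14 in PD1+Tim3- cells and 18 for the interaction. Where the main count was 3, a match lay within 1.5 times of it. For populations in WT 11 fits matched, 3 gave more and 5 fewer. For populations labelled dKO 15 matched and 4 gave fewer. Without a filter on low counts the number called was 1 between genotypes in PD1+Tim3- cells and 6 between populations in WT. A robust fit gave 1 between genotypes in PD1+Tim3- cells, and DESeq2 gave 1 between populations in each of the genotypes labelled dKO and WT. With replicate 2 left out of both groups labelled dKO, 0 were called between populations labelled dKO. Leaving out 1 library at a time gave 0 to 1 between genotypes in PD1+Tim3- cells, 0 to 3 between populations labelled dKO, 1 to 5 between populations in WT, and 0 in the other two comparisons. A fit that leaves 1 library in a group assumes that it varies like the rest. The cause of these changes was not tested. No called gene changed sign.

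The median of the sterol enzymes between populations stayed positive in all 19 fits, at 0.10 to 0.24 in cells labelled dKO and 0.14 to 0.19 in WT. The median of the fatty acid genes changed sign in 1 of 19 fits in each (-0.18 to 0.06 labelled dKO, -0.06 to 0.02 in WT). The replicate numbers did not pair the compared groups: deviations of same-numbered libraries correlated at -0.0694 to -0.000531. With a replicate block by number, 3 members were called between populations labelled dKO and 2 in WT; with a replicate block by genotype and number, 2 and 2. Sc5d was lost in both (adjusted p 0.0619 and 0.0792), and Fasn in the second (0.0523); Npc2 and Mid1ip1 were lost in both in WT (0.0582 to 0.107). Over single genes, 16 fits gained a call and 51 lost one. A fit of only the 4 libraries compared could not be had for the interaction, nor a block by genotype and number for the genotype comparisons. Depth limits the low genes, among them Abca1 with 131 counts over all libraries, Dhcr7 with 242, Mvk with 243 and Fads1 with 250, and Scd1 and Fads2 could not be tested.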
